A study of Mus musculus with 6 samples.

Results

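Onecut1, Onecut2, Onecut3, Ebf1, Ebf2 and Ebf3, the Onecut and Ebf transcription factor genes of the mouse, were compared between MNs derived from control and SMA mESCs. The 6 genes were matched by symbol among the 41945 genes and loci of the deposited gene table, and each had 1 entry. MNs from the Hb9 line (labelled wildtype) and from the A2 line (SMN2+/+;mSmn-/-) were sequenced in 3 samples per line. Both lines have the FVB/N background, and by the study's methods both carry the human SMN2 transgene and HB9:eGFP, a reporter under the promoter of Mnx1 (Hb9), with the mouse Smn gene intact in Hb9 and disrupted in A2. Embryoid bodies were treated with 1 µM retinoic acid and 1 µM Smoothened agonist for 5 days before the eGFP-positive cells were sorted. The table holds 1 FPKM value (fragments scaled by transcript length and by the number mapped) per genotype, so the values have no SD and no test between the genotypes was made. Each genotype is 1 mESC line, so genotype and line cannot be told apart. Smn1, the gene disrupted in A2, had 137 FPKM in control and 5.26 FPKM in SMA MNs (log2 ratio -4.70), lower in the line labelled as its knockout.

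Onecut proteins bind DNA through a cut domain and a homeodomain. In the developing spinal cord they are found in new MNs and several interneuron classes, and Onecut1 is known to sustain Isl1 expression in MNs. Ebf proteins (early B cell factor, also called Collier/Olf/EBF) bind DNA through a zinc-containing domain and pair through a helix-loop-helix. They act after the proneural factors as neurons leave the cell cycle and settle, and Ebf1 is best known for directing B cell development. In ESCs programmed toward MNs, Ebf and Onecut factors are known to mark the enhancers that the Isl1 and Lhx3 complex occupies in turn.

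All 6 genes were lower in A2 SMA MNs, by 8.88-fold for Onecut2 to 20.4-fold for Onecut3. Each was at least 2-fold lower, and none was at least 2-fold higher. The comparison was made over 14926 genes that had a symbol, reached 1 FPKM in Hb9 or A2 and were above 0 in both, and of these 22.4% were at least 2-fold lower and 6.83% at least 2-fold higher. The median log2 ratio (A2 SMA over Hb9 control, without a pseudocount) was -3.53 over the 6 genes and -0.29 over the genes compared, whose quartiles were -0.89 and 0.19. When the median gene was set to a ratio of 0, 2461 genes were at least 2-fold lower and 1558 higher, which put the higher ones at 38.8% of those past the limit instead of 23.4%. In sorted cell populations, fewer cells that express a gene and less RNA per cell cannot be told apart.

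**Figure D1:**
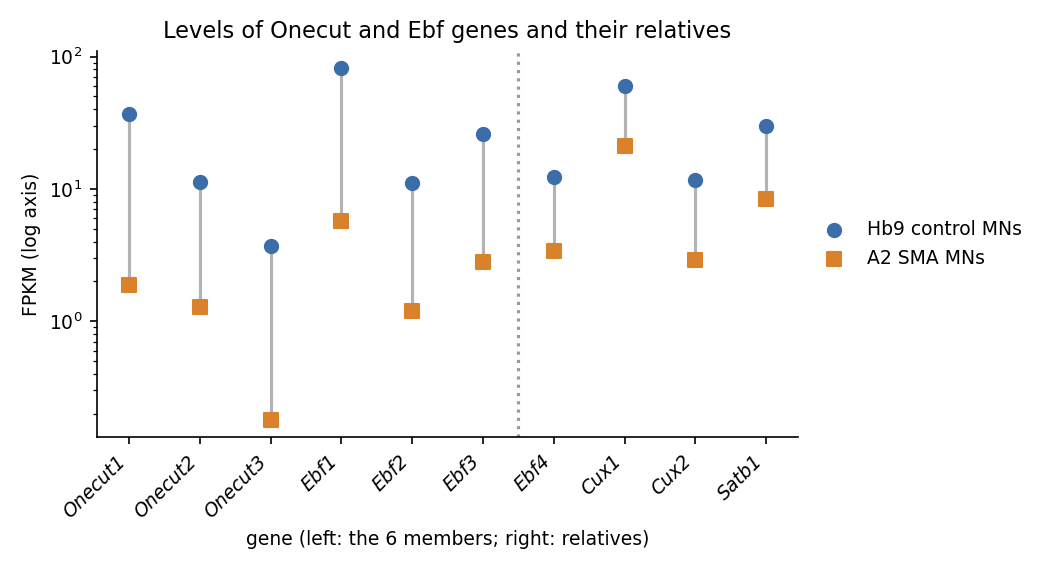
FPKM (log axis) in Hb9 control MNs (circles) and A2 SMA MNs (squares) for the 6 genes, left of the dotted line, and 4 relatives, right of it; each point is the single deposited value of a genotype, so there are no error bars. All 6 genes lie between 3.68 and 81.6 FPKM in control MNs and between 0.181 and 5.70 FPKM in SMA MNs, and for each relative drawn the square also lies below the circle.

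The entry of Onecut1, a gene also called Hnf6 for its role in the liver, had the highest level of the Onecut entries in both genotypes. Hb9 control MNs had 36.9 FPKM of Onecut1 and A2 SMA MNs had 1.88 FPKM, which is 5.09% of the control level (log2 ratio -4.30, 19.6-fold lower). In the build used by the authors, NCBI m37, its entry covers chromosome 9 from 74695790 to 74741124 and also holds Gm16551 and a clone-named gene, so the value is that of 3 gene names together. In GENCODE M21 (build GRCm38), Gm16551 is a processed transcript of the same strand that ends 1787 bases before Onecut1 starts. The share of the entry's FPKM that belongs to Onecut1 itself was therefore not separated.

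Onecut3, on chromosome 10 from 79957580 to 79980021, was the lowest of the 6 genes in both genotypes. Its level was 3.68 FPKM in control and 0.181 FPKM in SMA MNs, a log2 ratio of -4.35. This is 20.4-fold lower, close to the fold of Onecut1, but the lower value is near the bottom of the genes compared. Only 0.992% of them had the same level or less in SMA MNs. Genes under 1 FPKM in both genotypes are not among them, and Onecut3 is through its control level. With 1 FPKM added to both values the log2 ratio of Onecut3 was -1.99 (-3.75 with 0.1 FPKM added).

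Ebf1 was the highest of the 6 genes in both genotypes. Ebf1 spans 390788 bases of chromosome 11, from 44430806 to 44821593, and reached 81.6 FPKM in the control line against 5.70 FPKM in the SMA line (log2 ratio -3.84, 14.3-fold lower). In control MNs 87.8% of the genes compared had the same level or less, and in SMA MNs 33.4% did.

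Ebf3, on chromosome 7 from 144385356 to 144506191, had 26.1 FPKM in control and 2.80 FPKM in SMA MNs. Mutations of its human counterpart are known to cause a neurodevelopmental syndrome. The log2 ratio was -3.22, which is 9.35-fold lower. The same log2 ratio of -3.22 was found for Ebf2 (9.34-fold lower), at 11.1 FPKM in the control line and 1.19 FPKM in the SMA line. Ebf2, known from Cajal-Retzius cells, spinal MNs and brown fat, lies on chromosome 14 from 67852129 to 68056008, and its log2 ratio was -2.47 with 1 FPKM added to both values.

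Sequence just before the transcription start is shown for Onecut1, Ebf1 and Ebf3, the most abundant of the 6 entries in control MNs. The table gives levels per gene and not per start, so they do not say from which start the transcripts came. RefSeq windows matched 3 of the 6 genes (Onecut1, Ebf3 and Ebf1, the last with 2 windows), and the 250 bases before the start were read from build GRCm38.p6, 5′ to 3′ on the strand of the gene. The windows are chr9:74861671-74861920 on the plus strand for Onecut1, chr11:44619978-44620227 on the plus strand for the later of the Ebf1 starts, and chr7:137314446-137314695 on the minus strand for Ebf3. None of them overlaps an exon of GENCODE M21. Capitals mark CANNTG, the general E-box letters of bHLH factors, and do not say which of these factors, proneural or other, could bind there.
Onecut1: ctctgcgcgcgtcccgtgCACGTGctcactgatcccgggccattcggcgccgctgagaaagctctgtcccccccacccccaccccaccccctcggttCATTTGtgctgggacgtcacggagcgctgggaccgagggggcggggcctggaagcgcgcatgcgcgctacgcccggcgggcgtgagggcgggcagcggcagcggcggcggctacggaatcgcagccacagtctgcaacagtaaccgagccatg
Ebf1: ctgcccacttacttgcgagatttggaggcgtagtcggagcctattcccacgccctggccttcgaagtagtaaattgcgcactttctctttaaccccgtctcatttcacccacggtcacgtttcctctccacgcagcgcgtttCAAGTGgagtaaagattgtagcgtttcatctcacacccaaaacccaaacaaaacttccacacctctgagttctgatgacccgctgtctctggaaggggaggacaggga
Ebf3: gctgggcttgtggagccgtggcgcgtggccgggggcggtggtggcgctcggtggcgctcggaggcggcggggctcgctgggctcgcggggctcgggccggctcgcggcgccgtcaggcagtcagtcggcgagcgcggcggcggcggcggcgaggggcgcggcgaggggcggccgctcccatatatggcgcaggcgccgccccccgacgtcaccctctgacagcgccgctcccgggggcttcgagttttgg

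The Onecut1 window holds 2 E-box matches, 232 and 153 bases before the start, the printed Ebf1 window holds 1 at 108 bases, and the Ebf3 window holds 0. The window of the earlier Ebf1 start, not printed because it overlaps an Ebf1 exon, holds 0 and has a GC content of 40%. At least 1 match was found in 66.2% of the 32851 windows of all genes. The letters ATCAAT and ATCGAT, which resemble the core bound by Onecut proteins, and the repeat bound by Ebf proteins (TCCC and GGGA with 2 bases between) were searched on both strands and did not occur in any of these 4 windows. They occurred in 6.72%, 0.728% and 0.779% of all windows. The GC content was 71.6% for Onecut1, 52% for the printed Ebf1 window and 80% for Ebf3, beside a median of 52.4% over all windows.

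Onecut2 had the smallest fold of the Onecut genes without a pseudocount, an order that turned for Onecut3 when 1 FPKM was added. Its level was 11.4 FPKM in the control line and 1.28 FPKM in the SMA line, and the log2 ratio was -3.15 (-2.44 with 1 FPKM added to both values). Its entry lies on chromosome 18 from 64499724 to 64560640.

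Within the Onecut family the shares of the 3 genes were unlike in the single values of the genotypes, and whether this exceeds the spread between samples was not tested. Summed over the 3 genes, the level was 52.0 FPKM in the control line and 3.34 FPKM in the SMA line (15.6-fold lower). FPKM is scaled by transcript length, and on this basis levels of different genes were added and compared. Other differences between genes in how reads are counted were not corrected for here. The entry of Onecut1, with the other genes it covers, made up 71.1% of this sum in control and 56.3% in SMA MNs, while Onecut2 made up 21.9% and 38.3%. For Onecut3 the share was 7.07% and 5.40%.

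The Ebf sum was 119 FPKM in control and 9.69 FPKM in SMA MNs (12.3-fold lower). Ebf1 contributed 68.6% of it in control and 58.8% in SMA MNs, Ebf3 22.0% and 28.9%, and Ebf2 9.38% and 12.3%. The log2 ratios of the 3 Ebf genes spanned 0.62 and those of the 3 Onecut genes 1.20. In each family the most abundant entry held a smaller share of the sum in SMA than in control MNs.

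The order of the levels was nearly the same in both lines. In control MNs it ran Ebf1, Onecut1, Ebf3, Onecut2, Ebf2 and Onecut3, and in SMA MNs Ebf3 stood above Onecut1. Onecut1 was 1.41-fold above Ebf3 in control MNs and Ebf3 1.49-fold above Onecut1 in SMA MNs. Onecut2 and Ebf2 were 1.02-fold apart in control and 1.07-fold in SMA MNs. With 1 value per genotype the spread of these levels is unknown, so it was not tested which of these steps exceed it. From first to last the levels spanned 22.2-fold in control and 31.6-fold in SMA MNs.

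**Figure D2:**
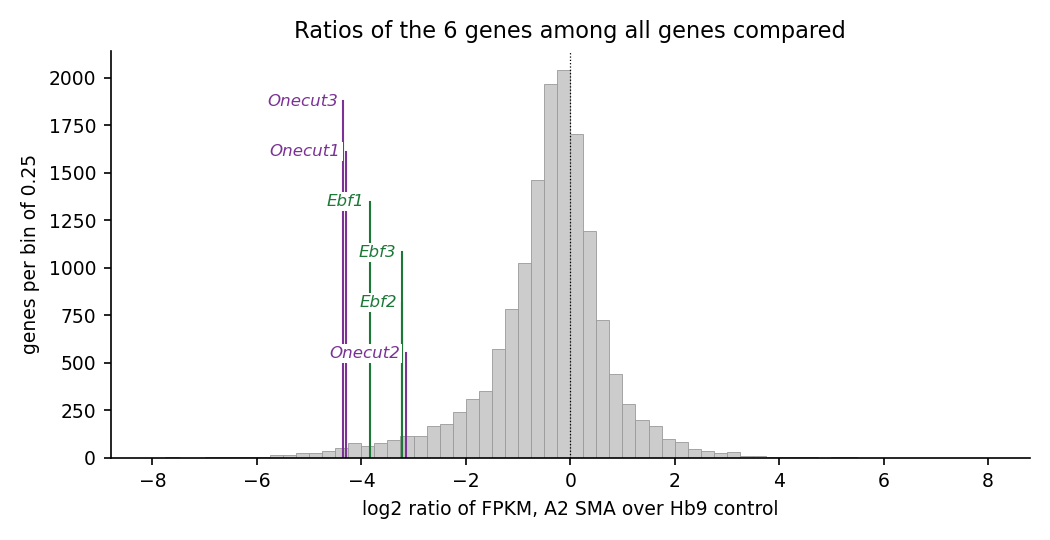
Number of genes per bin of 0.25 of the log2 ratio (A2 SMA over Hb9 control) for the 14926 genes compared, with the 6 genes drawn as labelled lines, Onecut in purple and Ebf in green; line heights carry no value. The 6 lines lie between -4.35 and -3.15, in the lower tail of a distribution whose median is -0.29.

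Placed among all genes compared, the ratio was lower than that of Onecut3 for 175 genes, than that of Onecut1 for 189 and than that of Ebf1 for 318. Ebf3, Ebf2 and Onecut2 had 527, 529 and 551 genes below them, at most 3.69% of those compared. The genes closest to each member over the 2 genotype levels were found by the distance on the log2 FPKM scale. For Onecut1 these were Sstr2, a somatostatin receptor (37.3 and 1.81 FPKM in control and SMA MNs, distance 0.055), and D930028M14Rik (0.14). For Ebf1 they were Olfm2 (distance 0.083) and Elavl3, a neuronal RNA-binding protein (0.14). Ebf3 lay closest to Dchs1 (0.052) and Hoxa5 (0.066).

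Onecut2 was itself one of the genes nearest to Ebf2. Nap1l5 was the closest gene to Ebf2 (distance 0.035) and Onecut2 the next (0.10), while Onecut2 had Tmem145 (0.10) and Nap1l5 (0.10) nearest. Onecut3 had Zfp663 (0.14) and Kcnk10 (0.22) nearest. These likenesses rest on 2 values per gene.

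The 4 relatives compared were lower by smaller factors than the 6 genes. Ebf4, the remaining Ebf gene, had 12.2 FPKM in control and 3.39 FPKM in SMA MNs (log2 ratio -1.85, 3.61-fold lower), whereas the other Ebf genes were at least 9.34-fold lower. Among the other genes that encode a cut domain, Cux2, a factor of upper-layer cortical neurons, had a log2 ratio of -2.01 and Satb1, a chromatin organizer, of -1.84. Cux1, which many cell types express, had a log2 ratio of -1.49. Of these 4 relatives 4 were at least 2-fold lower and 0 higher, where 22.4% of all genes were lower. The differences between these genes and the 6 members could not be tested.

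Zfp423 and Zfp521, zinc finger proteins that bind Ebf proteins and alter their activity, were within 2-fold of control. Zfp423 had 28.4 FPKM in control and 20.5 FPKM in SMA MNs (log2 ratio -0.47), and Zfp521 had 10.9 and 6.09 FPKM (-0.84). Relative to the median gene their log2 ratios were -0.18 and -0.55.

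Proneural bHLH factors act before Ebf genes in neurogenesis, and they were listed together with neuronal bHLH factors, for which no such order is given. Of the 7 genes listed, 4 reached 1 FPKM in Hb9 or A2. Each of the 4 was at least 2-fold lower in SMA MNs, with a median log2 ratio of -4.51. Neurog2, the proneural factor of MN progenitors, had 19.9 FPKM in control and 0.225 FPKM in SMA MNs (log2 ratio -6.47). Neurod4 followed at -4.97, Neurog1 at -4.06 and Neurod1, whose entry also holds Cerkl, at -2.48. The others of this list, Neurod2, Neurod6 and Atoh1, were between 0 and 0.185 FPKM in both genotypes.

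The factors that Onecut and Ebf proteins accompany in MNs were next. Of 6 genes (Isl1, Isl2, Lhx3, Lhx4, Mnx1 and the cofactor Ldb1), 4 were at least 2-fold lower in SMA MNs, 0 were higher and 2 were within 2-fold. Isl1 had a log2 ratio of -4.18 (108 FPKM in control, 5.95 FPKM in SMA MNs), near that of Onecut1. Lhx3 was lower still at -6.31 and Lhx4 at -5.06, and Isl2 had a log2 ratio of -2.57. Mnx1, whose promoter drives the eGFP used for sorting, had 41.2 FPKM in control and 44.2 FPKM in SMA MNs. Its log2 ratio of 0.10 stood 0.39 above the median gene, while Ldb1 had a log2 ratio of -0.72.

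**Figure D3:**
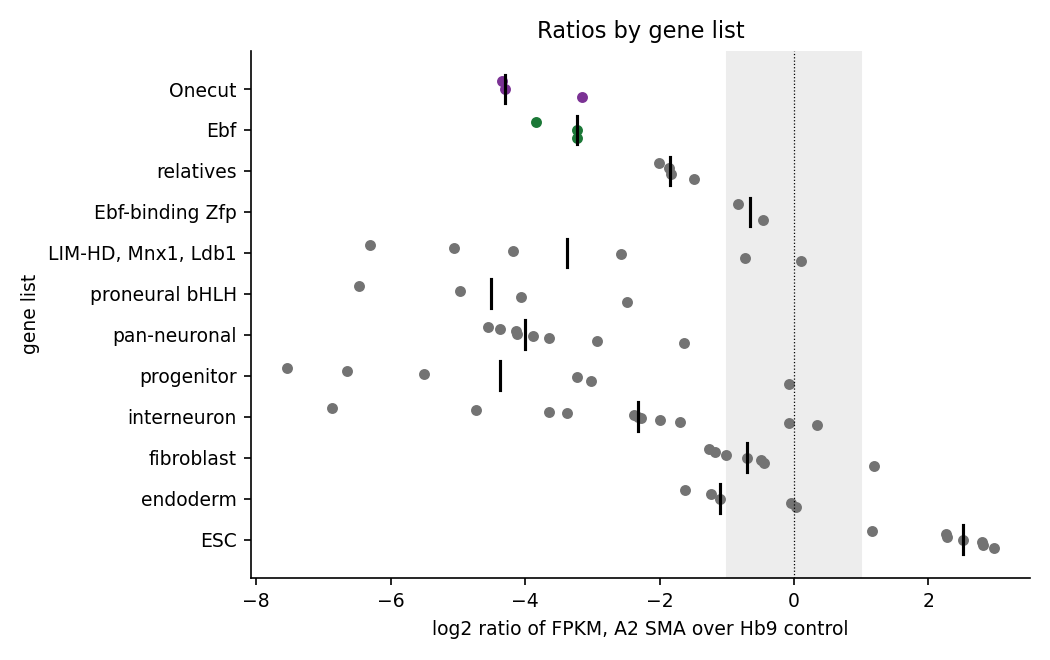
Log2 ratio (A2 SMA over Hb9 control) of each gene with at least 1 FPKM in either genotype, by gene list, with the list median as a black bar; the grey band marks ratios within 2-fold and the dotted line no difference. The Onecut and Ebf genes lie at -4.35 to -3.15, and all 7 ESC markers lie above 1. The medians are -3.38 for the MN factors (LIM-HD, Mnx1, Ldb1) and -4.00 for the pan-neuronal markers. They are -4.37 for the progenitor markers, -4.51 for the bHLH factors and -2.32 for the interneuron list.

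Markers of the labelled cell type and of other cell types also differed between the lines. Of 7 defining MN markers 6 were found, and Slc18a3 was not analysed here. In Hb9 control MNs Isl1, Mnx1, Lhx3, Chat and Isl2 were between 6.85 and 108 FPKM and Slc5a7 was at 0.387 FPKM. Chat, the enzyme that makes acetylcholine, had 15.5 FPKM in control and 0.344 FPKM in SMA MNs, and Mnx1 was the one MN marker above 5.95 FPKM, the level of Isl1, in the SMA line. Tubb3 and Map2 were not analysed here either, and the 8 other pan-neuronal markers were all at least 2-fold lower, with log2 ratios from -4.56 for Nefm to -1.63 for Stmn2. The ratios of the 6 Onecut and Ebf genes all lay inside this range. They also lay inside the wider ranges of the MN factors, bHLH factors and neural progenitor markers.

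All 7 ESC markers were at least 2-fold higher in A2 SMA MNs, and their summed level was 219 FPKM in control and 1412 FPKM in SMA MNs. Pou5f1, Nanog and Esrrb had log2 ratios of 2.98, 2.51 and 2.81. Of 6 neural progenitor markers (Sox1 was not analysed here), 5 were at least 2-fold lower, Pax6 (log2 ratio -0.07) being the other one, and their sum was 2175 and 213 FPKM. Vim, Fabp7 and Nes were the most abundant of them in control MNs, with log2 ratios of -3.02, -6.65 and -3.23. In SMA MNs Pax6 (21.4 FPKM) stood above Nes (7.07 FPKM) and Fabp7 (5.52 FPKM). The spinal interneuron list had 11 of 15 genes with at least 1 FPKM, of which 9 were at least 2-fold lower and 0 higher, with a median log2 ratio of -2.32. With a filter of 5 FPKM, which leaves fewer of these genes, 5 were lower. Gata2 (-2.38), the entry of Gata3 and 9230102O04Rik (-1.70) and Lmx1b (-0.08) were the most abundant. Cuffdiff gave the status OK to all 6 Onecut and Ebf genes, and FAIL, which marks a test that was not completed, to Lhx4, Ldb1, Stmn2, Elavl3, Nes, Lmx1b and Esrrb. Whether a different mixture of cells in the sorted samples has a part in the levels of the Onecut and Ebf genes was not tested.

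The entries beside the 6 genes on their chromosomes were within 2-fold of control about as often as genes in general. For each gene the nearest entry on either side with at least 1 FPKM was taken, and of these 12 entries 9 were within 2-fold, 2 were lower and 1 was higher, with a median log2 ratio of -0.17. Over all genes compared 70.8% were within 2-fold. The lowest ratio was that of St8sia3, a sialyltransferase gene that ends 62890 bases before Onecut2 and had 6.92 FPKM in control and 0.803 FPKM in SMA MNs. Its log2 ratio of -3.11 lay beside the -3.15 of Onecut2, while Fech, an enzyme of heme synthesis on the other side, had a log2 ratio of -0.22. Atp8b3, which starts 2309 bases after Onecut3, had a log2 ratio of -0.58, and an entry without a symbol 60868 bases before Onecut3 had -0.42.

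BC031353, which starts 59567 bases after Onecut1, was the other lower neighbour at -1.14. The entry before Onecut1, which holds Rsl24d1, 2410004A20Rik and Gm20509, lies 1724650 bases away and was the higher one at 1.76. Around Ebf1, Rnf145 had a log2 ratio of -0.90 and Gm12161 of -0.12. The neighbours of Ebf2 were Ppp2r2a, a phosphatase subunit (-0.06), and an entry of Cdca2 with a clone-named gene (0.07). Those of Ebf3 were Mgmt, a DNA repair enzyme (0.67), and 9430038I01Rik (0.35). Of the 4 neighbours of Ebf2 and Ebf3, 0 were 2-fold lower or higher. The entries of BC031353, Rnf145 and Cdca2 had the status FAIL.

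**Figure D4:**
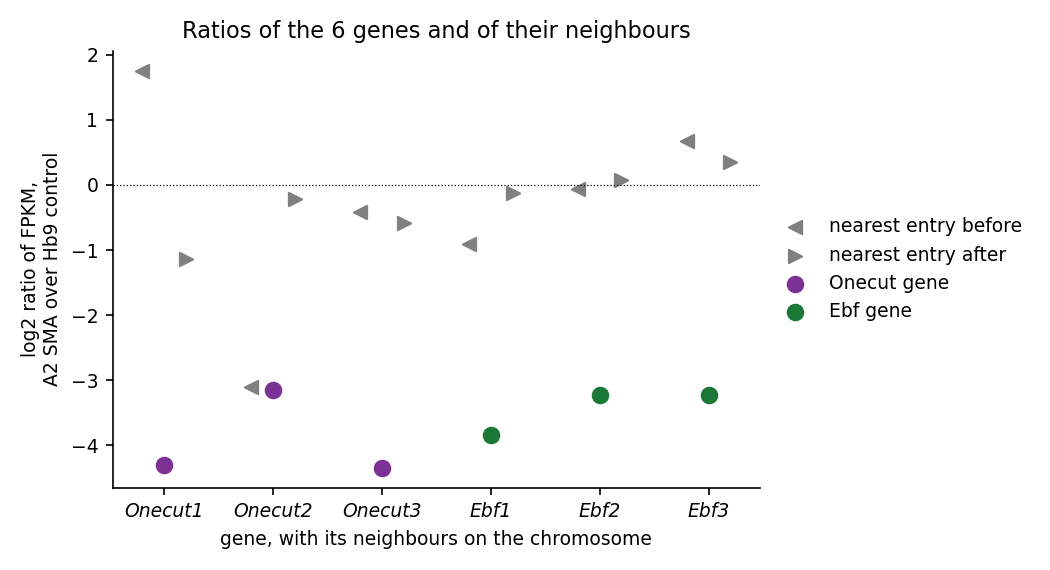
Log2 ratio (A2 SMA over Hb9 control) of the 6 genes (coloured circles) and of the nearest entry with at least 1 FPKM before (left-pointing triangles) and after (right-pointing triangles) each on the chromosome. The circles lie between -4.35 and -3.15, and St8sia3, before Onecut2, at -3.11 is the one triangle near them.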

How the data were processed

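RNA of sorted mESC-derived MNs was sequenced as single-end reads in 3 samples per genotype. The authors checked the reads with FastQC (0.10.1), removed adapters and poly-A tails using CutAdapt, aligned the remainder by TopHat (2.04) against NCBI m37 with the Ensembl annotation, and computed 1 FPKM per gene and genotype with Cufflinks and Cuffdiff. The deposited table also lists the authors' fold change, test statistic, p and q of each gene, which were not used. FPKM is relative to all mapped fragments, so a shift in abundant genes moves every other value, and scalings were tried for this reason. Its locus starts, counted from 0, were raised by 1.

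Each symbol was represented by its entry with the highest FPKM. Log2 ratios were formed without a pseudocount, with Python 3.11.15, numpy 2.4.6 and pandas 2.3.3, and the counting was tested on simulated data. With 1 value per genotype, a gene counted as lower or higher past a fold limit of 2, and no test was made. The members and gene lists were chosen with earlier results of these data known. Named are the 6 members, all genes of the lists of relatives, Ebf-binding proteins, MN factors and bHLH factors, up to 3 of the most abundant genes of each other list, the 2 genes nearest in level, the neighbours and Smn1. Some list genes are not reported here and were left out of the list counts, without regard to their values. Other marker genes were named after their values were seen. Promoter windows are from RefSeq and exons from GENCODE M21, both of GRCm38. Alternatives were pseudocounts of 0.1 and 1 FPKM, 3 scalings, summed entries, filters of 5 FPKM and none, other fold limits, and leaving out the Cuffdiff status FAIL.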

Additional observations from a re-analysis of the deposited data

How the results depend on the processing

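All 6 genes stayed at least 2-fold lower in A2 SMA MNs under each alternative that kept them (the filter of 5 FPKM dropped Onecut3), with log2 ratios from -4.35 to -1.99. In the order Onecut1, Onecut2, Onecut3, Ebf1, Ebf2 and Ebf3, a pseudocount of 0.1 FPKM gave log2 ratios of -4.22, -3.06, -3.75, -3.82, -3.12 and -3.18. A pseudocount of 1 FPKM gave -3.72, -2.44, -1.99, -3.62, -2.47 and -2.84, so that Onecut3 changed from the lowest to the highest ratio. Centring on the median gene gave -4.01, -2.86, -4.06, -3.55, -2.93 and -2.93, equal upper quartiles -4.01, -2.86, -4.06, -3.55, -2.94 and -2.94, and scaling to Gusb, Pgk1 and Rpl13a -4.15, -3.01, -4.21, -3.70, -3.08 and -3.08.

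Of all genes, 3343 were at least 2-fold lower and 1020 higher. Without a filter these counts were 5051 and 1733, at a limit of 4-fold 1326 and 268, at 1.5-fold 5285 and 1900, and at 8-fold, a limit chosen after the values were seen, 626 and 79. They were 2597 and 656 with a pseudocount of 1 FPKM, 2314 and 556 with the filter of 5 FPKM, 2461 and 1558 when centred, and 2470 and 1551 with equal upper quartiles. Of the genes of the other lists 42 were lower and 9 higher, 22 and 0 at 8-fold, and 15 were higher without a filter. Over all genes compared 22.4% were at least 2-fold lower and 6.83% at least 2-fold higher. The other lists mix neuronal, ESC and other tissue genes, so their pooled count does not describe any of them.

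No paired analysis was possible because the table gives 1 value per genotype, and for the same reason no replicate was left out in turn. The number of reads behind a value is not given, and low FPKM values were not turned back into whole reads. The lowest value of the 6 genes, that of Onecut3 in SMA MNs, was 0.862 when multiplied by its exonic length of 4776 bases in kilobases (GENCODE M21). In SMA MNs 5% of 3345 genes with 1 transcript and more than 0 FPKM were at or under 0.0332 on the same scale. Genes of short exonic length were left out of these 3345.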

Other observations

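Lists of other tissues in which Onecut and Ebf factors act held genes at very different levels. Of 7 early B cell genes, the setting in which Ebf1 is best known, 4 were under 1 FPKM in both genotypes. Pax5, which acts with Ebf1 in B cells and also marks the midbrain, had 1.78 FPKM in control and 0.236 FPKM in SMA MNs, and Cd79b, a part of the B cell receptor, had 0.798 and 1.93 FPKM. The entry of Rag1, which also holds B230118H07Rik, had 46.3 and 30.4 FPKM.

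Onecut1 also acts in liver and pancreas. Of 8 endoderm, liver and pancreas genes, 3 were at least 2-fold lower in SMA MNs and 1 was when ratios were centred on the median gene. Foxa2, which floor plate and endoderm share, had 55.9 FPKM in control and 18.2 FPKM in SMA MNs (log2 ratio -1.62). Foxa1 had a log2 ratio of -1.23 and Sox17 of -1.11. Alb was listed at 0 in control MNs and Pdx1 was at most 0.0783 FPKM in both. Of 5 adipose genes, the setting of Ebf2 in brown fat, 4 were under 1 FPKM in both genotypes, and Prdm16 had a log2 ratio of 0.65. Of 8 fibroblast genes, 7 had at least 1 FPKM 3 of them were at least 2-fold lower and 1 (Thy1, which neurons also express) higher, the latter within 2-fold with a pseudocount of 1 FPKM, and 0 were lower when ratios were centred on the median gene. Their summed level over all 8 was 75.7 FPKM in control and 41.1 FPKM in SMA MNs, with Col1a2, Col1a1 and Col3a1 at log2 ratios of -1.17, -1.01 and -1.27. Cuffdiff gave Col1a1 the status FAIL, and 2 fibroblast genes were lower without the entries of that status.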
